A study of Mus musculus with 6 samples.

Results

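The genes described here are 43 enzymes of amino acid breakdown and the closely tied methionine cycle, chosen by name for their role in degrading tyrosine, tryptophan, histidine, methionine, cysteine, serine, glycine, alanine, glutamine, proline, lysine and the branched-chain amino acids. Their accessible chromatin was taken as every ATAC-seq region, called in any library, whose midpoint lay inside or within 50 kb of the gene and was closer to it than to any other protein-coding gene. By this rule 363 of the 109853 regions of the series belonged to 42 of the 43 genes, and Sds had none. Of the 363 regions, 153 were called in all 6 libraries and could be compared between the groups. These 153 lay at 39 genes, since Gnmt, Gpt and Bckdha had only partly called regions.

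ATAC-seq cuts and tags open DNA with the Tn5 transposase, so a peak marks accessible chromatin and not transcription. Nuclei carrying HNF4a, a hepatocyte transcription factor, were sorted from livers of male mice. All mice carried floxed (F/F) alleles of 2 genes, which the sample titles give as Ncor1/2. Ncor1 encodes the nuclear receptor corepressor NCOR1. Controls received an adeno-associated virus (AAV) carrying eGFP (AAV-eGFP, 3 libraries), and double knockouts (dKO, 3 libraries) received an AAV carrying the Cre recombinase, which deletes floxed sequence. Both groups were collected at zeitgeber time 10, on day 5 after the virus. Neither the promoter driving Cre nor the age of the mice is given in the sources used here, and the labels do not say that each library came from its own mouse, so p-values measure the spread between libraries and part of that spread may be technical. By its title, the study concerns nuclear receptor corepressors, the glucocorticoid receptor and glucose production by the liver.

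The liver is the main site of breakdown for most essential amino acids, and the branched-chain ones are an exception in that their first step runs largely in muscle. Many of these enzymes are liver-specific, are induced in fasting by glucagon and glucocorticoids, and release the nitrogen that enters the urea cycle and the carbon that enters gluconeogenesis or ketone body synthesis. The methionine cycle makes S-adenosylmethionine, the methyl donor of the cell, and hands homocysteine to transsulfuration, which makes cysteine.

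Fewer tags were recovered in dKO at many of the regions of these genes. Among genes with a RefSeq promoter window, the 4 below had the start-site regions that fell with the smallest p-values, and they show which bases those open regions cover. Each is the RefSeq window of GRCm38.p6 (mm10) from 250 bases before to 50 bases after the annotated start, on the minus strand, printed 5′ to 3′, with the bases inside the called region in capitals.
Aass (chr6:23132937-23133236): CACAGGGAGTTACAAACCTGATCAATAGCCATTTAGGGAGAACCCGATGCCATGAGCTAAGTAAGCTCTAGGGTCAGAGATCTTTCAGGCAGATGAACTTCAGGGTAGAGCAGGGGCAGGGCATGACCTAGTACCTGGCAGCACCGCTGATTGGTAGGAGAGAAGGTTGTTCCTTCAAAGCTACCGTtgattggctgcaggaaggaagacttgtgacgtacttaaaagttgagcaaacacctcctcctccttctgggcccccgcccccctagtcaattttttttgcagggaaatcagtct
Ahcy (chr2:155074448-155074747): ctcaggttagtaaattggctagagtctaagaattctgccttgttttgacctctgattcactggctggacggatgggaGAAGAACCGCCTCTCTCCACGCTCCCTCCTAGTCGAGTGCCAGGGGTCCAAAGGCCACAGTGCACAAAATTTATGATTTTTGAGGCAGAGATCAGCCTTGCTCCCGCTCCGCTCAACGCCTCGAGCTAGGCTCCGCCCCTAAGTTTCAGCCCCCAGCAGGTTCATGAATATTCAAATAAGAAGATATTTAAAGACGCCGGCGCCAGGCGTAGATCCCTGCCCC
Haao (chr17:83846741-83847040): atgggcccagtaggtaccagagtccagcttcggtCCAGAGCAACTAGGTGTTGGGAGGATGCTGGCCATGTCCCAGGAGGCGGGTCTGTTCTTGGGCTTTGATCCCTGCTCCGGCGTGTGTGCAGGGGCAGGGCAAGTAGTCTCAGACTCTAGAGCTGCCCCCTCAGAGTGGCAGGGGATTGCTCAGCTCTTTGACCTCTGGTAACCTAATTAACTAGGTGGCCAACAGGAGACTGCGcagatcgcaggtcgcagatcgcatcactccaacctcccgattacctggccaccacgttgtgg
Tdo2 (chr3:81975679-81975978): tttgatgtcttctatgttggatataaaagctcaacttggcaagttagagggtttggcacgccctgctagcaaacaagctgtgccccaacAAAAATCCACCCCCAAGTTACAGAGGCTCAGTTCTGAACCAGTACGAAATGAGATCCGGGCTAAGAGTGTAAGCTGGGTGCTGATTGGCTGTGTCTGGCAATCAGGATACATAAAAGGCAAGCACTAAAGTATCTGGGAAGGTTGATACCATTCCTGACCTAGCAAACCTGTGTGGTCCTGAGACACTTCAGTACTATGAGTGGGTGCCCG
The called region covered 187 of the 300 bases at Aass, 223 at Ahcy, 204 at Haao and 211 at Tdo2. Short motifs were searched on both strands of these windows. Aass held TTGAGCAA, a match to the C/EBP pattern TTGCNNAA on the other strand, whose first base lies at -22 from the start. Tdo2 held ACAAGCTGT, a match to ACANNNTGT, the spacing of a glucocorticoid receptor element in relaxed form, at -178, and TATAAA at -229. All 3 matches lay outside the called regions. RefSeq windows were found for 33 of the 43 genes, 36 distinct windows in all. In these, TTGCNNAA occurred in 4, ACANNNTGT in 6 and TATAAA in 4, and the shares of all 32544 windows of that length were 10.8%, 6.83% and 13.6%. The strict element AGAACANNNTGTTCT, the HNF4A pattern CAAAGTCCA and the cAMP response element TGACGTCA occurred in 0 of the 36, against 0.00922%, 0.479% and 1.8% of all windows. A match is a run of letters and not a bound site.

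Of the 153 shared regions, 57 changed between the groups, 37.3% where 19.8% of all shared regions did. Of these, 50 were lower in dKO, 7 were higher, and 96 regions were not called (limma, Benjamini-Hochberg adjusted over all 51749 shared regions, threshold 0.05). The 50 make up 32.7% of these regions, where 11.6% of all shared regions were lower, and the 7 make up 4.58%, where 8.19% of all were higher. The median change was -0.23 on the log2(normalized tag count + 1) scale, against -0.02 over all shared regions, and 115 of the 153 changes were below 0. The changes were moderate, with a median of -0.56 among the lower regions and 0.65 among the higher ones, and 2 of the 50 fell by 1 or more, at Aass and Cth. At least 1 lower region was found at 28 of the 39 genes (71.8%, where 23.6% of all genes had one) and at least 1 higher region at 6 (15.4%, where 17% had one). Members had a median of 3 shared regions and all genes 2, and a gene with more regions has more chances of a call. Bckdhb and Hibadh had both, and 7 of the 39 genes (Hgd, Amdhd1, Ftcd, Gcdh, Ivd, Mccc1 and Hibch) had no called region.

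The 3 dKO libraries did not fall equally. In all 50 lower regions the values of dKO 1 and dKO 2 were below all 3 controls. In 42 that of dKO 3 was too, and in 48 dKO 3 was the highest of the dKO libraries. The 50 were called from these same values. Of the 153 shared regions, 53 had all dKO values below all controls and 8 had them above, 39.9% together. Over all shared regions 15.8% lay below and 12.6% above, 28.4% together. Peaks were also called at different widths in the deposited lists. Control 1, dKO 1 and dKO 2 had narrow peaks, and control 2, control 3 and dKO 3 had wide ones, so this split goes partly with the groups and with the place of dKO 3. All 50 lower and all 7 higher regions kept their direction inside both classes, but they were called from these same libraries. Over all shared regions, 37509 of 51749 had 1 direction in both classes. Inside the wide class alone, 0 of all shared regions were called lower and 0 higher. The median change of the 50 was -0.72 among the narrow libraries and -0.34 among the wide ones, and with 1 library on one side of each class these values have little replication. With the width class added to the limma model, 40 of the 50 lower and 7 of the 7 higher calls were kept. Without dKO 2, 14 of the 50 and 0 of the 7 were kept (2.68% of all shared regions were then lower, and 9.15% of the members), and without dKO 1, 22 and 2 were kept. Without centring of the libraries, 32 were lower and 4 higher. With 0 higher regions without dKO 2, 8 regions were above 0 at an unadjusted p under 0.05.

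The sort can be checked at marker genes. All 10 hepatocyte markers had a region. The summed normalized tag counts of their regions ranged from 1407 to 2347 in control and from 1356 to 1435 in dKO. Of their 32 shared regions, 12 were lower and 0 higher, and the median change of the 32 was -0.33. The 12 make up 37.5%, where 32.7% of the amino acid gene regions and 11.6% of all shared regions were lower. A fall of this size was thus not particular to the amino acid genes. Of the markers of other liver cells, Vsig4, Timd4 and C1qa (Kupffer cells), Dcn (stellate cells), Krt19, Krt7 and Cftr (cholangiocytes) and Cd79a, Ms4a1 and Nkg7 (lymphocytes) had no peak in any library. The lists summed to 24.3 to 52.3 in dKO and 36.1 to 41.4 in control for Kupffer cells (5 of 8 markers with a region), 392 to 575 and 456 to 573 for endothelial cells (8 of 8), 100 to 147 and 123 to 144 for stellate cells (7 of 8), 325 to 389 and 376 to 408 for cholangiocytes (4 of 7), and 90.7 to 118 and 122 to 134 for lymphocytes (3 markers with a region). The lymphocyte sums of the groups did not overlap. Their part in the changes at the amino acid genes was not tested. In these bulk libraries, fewer nuclei open at a site and less opening per nucleus cannot be told apart.

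**Figure D1:**
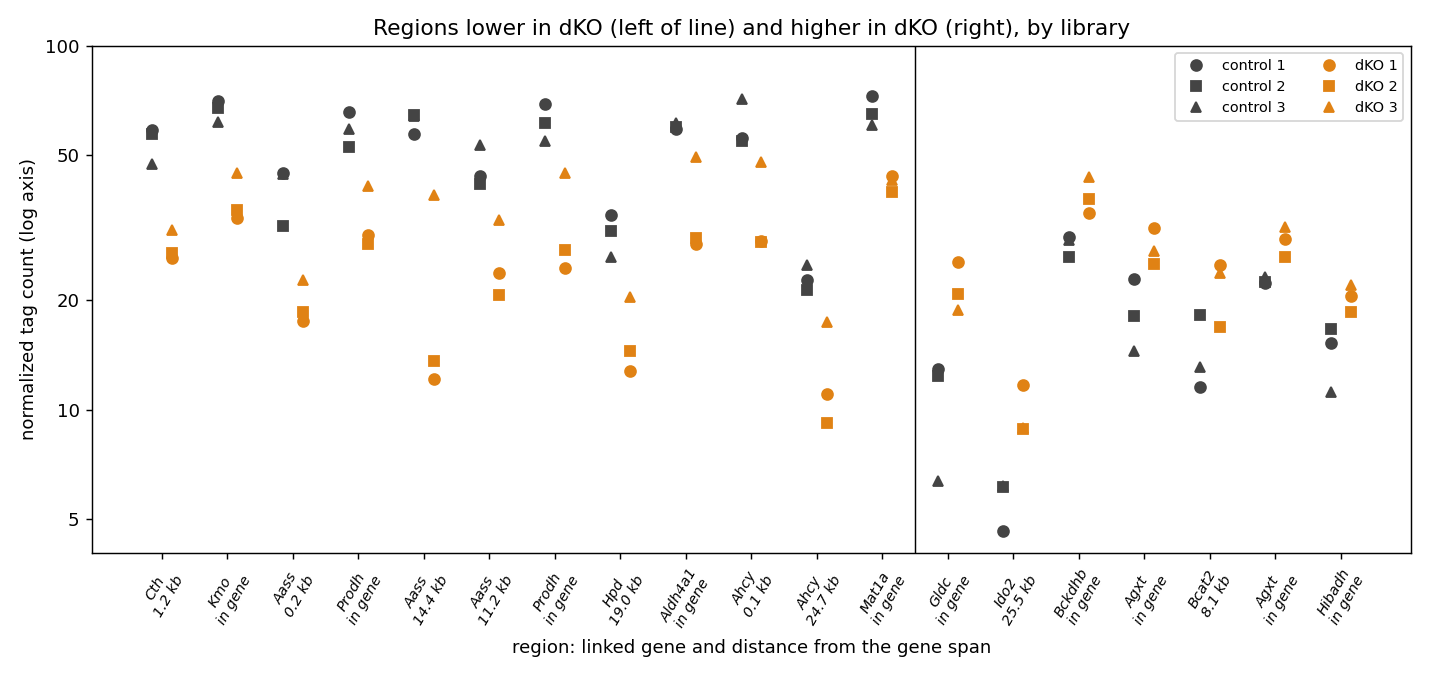
Normalized tag counts (log axis) in each library of the 12 lower regions with the smallest p-values and of the 7 higher regions, with control libraries dark, dKO libraries orange and the marker shape giving the replicate number. In the 12 lower regions all dKO points lie below all control points, and dKO 3, the triangle, is the highest dKO point in all but Mat1a.

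Lysine breakdown held the largest change of the 153 regions. Of its 7 shared regions 4 were lower, 57.1% where 11.6% of all shared regions were. All 4 were at Aass, so this share rests on 1 gene and does not set the pathway apart. Aass encodes the bifunctional enzyme that opens the main lysine pathway, and 4 of its 6 shared regions fell. At chr6:23147323-23147518, 14434 bp upstream of the start, normalized tag counts were 57.4, 64.4 and 64.2 in control and 12.1, 13.6 and 38.8 in dKO. dKO 1 and dKO 2 lay far below the controls and dKO 3 stood between them, with no overlap. The means were 62.0 ± 3.98 and 21.5 ± 15 (SD, n = 3), a log2 change of -1.62 (SE 0.26, limma adjusted p = 0.00204). The region at the start (chr6:23133050-23133377), shown in capitals above, had 44.8, 31.9 and 44.5 in control and 17.5, 18.6 and 22.7 in dKO, so that all 3 dKO libraries were low (log2 change -0.94, SE 0.15, adjusted p = 0.00184). A region 11173 bp upstream (chr6:23144008-23144311) had 44.0, 41.8 and 53.3 against 23.8, 20.7 and 33.2, again without overlap (-0.77, adjusted p = 0.00246). The fourth lay inside the gene (chr6:23131140-23131318), with 49.4, 49.4 and 50 in control and 29.8, 27.9 and 40.2 in dKO (-0.55, adjusted p = 0.00576). All 4 stayed called whichever library was left out. Gcdh, the glutaryl-CoA dehydrogenase further down the pathway, had 1 shared region, at its start, with 77.4, 61.2 and 64.7 in control and 53.0, 46.0 and 60.8 in dKO. These values did not overlap but the change of -0.28 was not called (adjusted p = 0.0947).

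**Figure D2:**
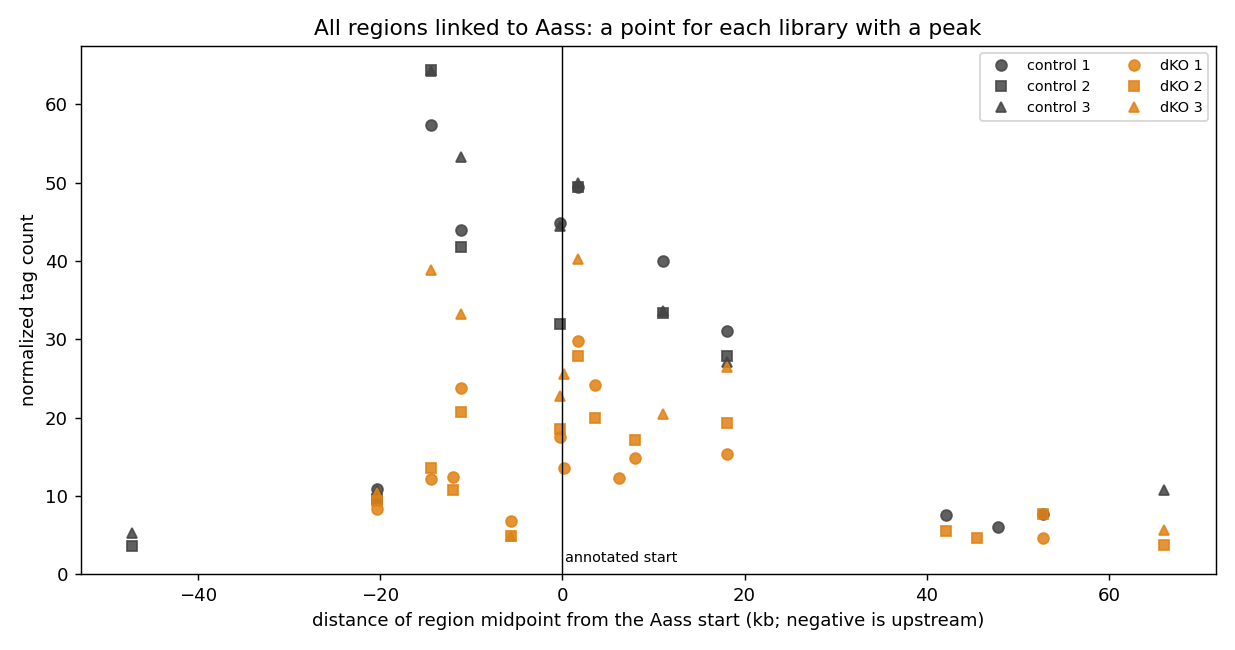
Normalized tag count of each region linked to Aass against its distance from the annotated start (kb), 1 point per library with a peak there, control dark and dKO orange. The dKO points sit below the control points at the start, inside the gene and at both upstream regions that fell, with dKO 3 closest to the controls at the region 14434 bp upstream.

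Glutamine and proline breakdown had 6 of 9 shared regions lower (66.7%, where 11.6% of all were), and the median change was -0.59. Prodh, the proline dehydrogenase of mitochondria, had 3 lower regions of 4. At chr16:18083548-18083798, inside the gene, values were 65.7, 52.8 and 59.1 in control and 30.2, 28.5 and 41.3 in dKO, all dKO libraries below all controls (-0.76, SE 0.12, adjusted p = 0.00203). At chr16:18081542-18081757 they were 69.4, 61.3 and 54.8 against 24.5, 27.4 and 44.8 (-0.90, SE 0.16, adjusted p = 0.00289). dKO 3 was the highest dKO library at both sites. The third Prodh region lay at the start (chr16:18089083-18089277) and changed by -0.65 (adjusted p = 0.0102). Aldh4a1, which takes the product of Prodh on to glutamate, had 59.1, 59.7 and 61.3 in control and 28.6, 29.7 and 49.6 in dKO at chr4:139624137-139624314, 1331 bp into the gene. The controls lay close together and the dKO mean was 36.0 ± 11.8 against 60.03 ± 1.14 (SD, n = 3), a change of -0.71 (adjusted p = 0.00509). Gls2, the liver glutaminase, had 2 lower regions of 3, the stronger change being -0.59 inside the gene, from 46.7 ± 3.75 to 30.4 ± 9.85 (adjusted p = 0.0117). The other Gls2 region, 218 bp outside the gene, overlapped between the groups in dKO 3 (58.6, against controls of 58.3 to 60). Without dKO 1 or without dKO 2, 3 of the 6 calls remained. These were the 2 Prodh regions inside the gene and Aldh4a1, while the Prodh start region had adjusted p = 0.0618 and 0.0695 and the 2 Gls2 regions lay between 0.0616 and 0.201.

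The methionine cycle had the most lower regions, 15 of 31 (48.4%, where 11.6% of all shared regions were lower). Its median was -0.40, and 30 of its 31 changes were below 0. Ahcy, the hydrolase that splits S-adenosylhomocysteine, had 4 lower regions of 6, at the start and up to 27434 bp upstream. At the start (chr2:155074428-155074670) values were 55.9, 54.7 and 71.5 in control and 29.1, 28.9 and 47.8 in dKO, without overlap (-0.73, SE 0.15, adjusted p = 0.00519). At chr2:155099051-155099286, 24671 bp upstream, they were 22.7, 21.3 and 25 against 11, 9.2 and 17.4 (-0.81, SE 0.16, adjusted p = 0.0053). Mat1a, the liver enzyme that makes S-adenosylmethionine, had a single shared region, across one edge of the gene (chr14:41104952-41105160), with 72.9, 65.1 and 60.7 in control and 43.9, 39.7 and 42.7 in dKO. Here the 3 dKO libraries were alike, 42.1 ± 2.16 against 66.2 ± 6.18 (SD, n = 3), and the change was -0.58 (SE 0.12, adjusted p = 0.00531).

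The betaine branch returns homocysteine to methionine through Bhmt. Bhmt, Bhmt2, Dmgdh and Sardh each had a region that fell, where 23.6% of all genes had one. The gene means of Dmgdh (-0.15, limma adjusted p = 0.315) and Sardh (-0.36, adjusted p = 0.0696) were not called. Bhmt, the betaine-homocysteine methyltransferase, fell by 0.55 at a region 2131 bp upstream (29.1 ± 3.71 in control, 18.6 ± 2.11 in dKO, adjusted p = 0.0117). Bhmt2, its neighbour and close relative, fell at 2 of 3 regions, by 0.40 inside the gene (adjusted p = 0.0216) and by 0.47 at 2478 bp outside it (adjusted p = 0.0313). Dmgdh, dimethylglycine dehydrogenase, lies next to Bhmt2 on chromosome 13 and fell at 1 of 7 regions, by 0.46 (31.2 ± 1.91 to 21.6 ± 2.97, adjusted p = 0.0172). Because these 3 genes are neighbours, their regions were divided between them by distance alone. Sardh, sarcosine dehydrogenase, fell at 4 of 8 regions. The region at its start changed by -0.51 (87.7 ± 1.63 to 60.2 ± 17.99, adjusted p = 0.0141) and one 113 bp outside the gene by -0.61 (55.2 ± 2.12 to 35.7 ± 12.95, adjusted p = 0.0113), with dKO 3 at 80.9 and 50.4, near the controls. Shmt1, the cytosolic serine hydroxymethyltransferase, fell by 0.89 at a region 6017 bp upstream, from 21.2, 18.8 and 11 to 7.99, 6.22 and 10.3, where control 3 and dKO 3 nearly met (adjusted p = 0.0124). It also fell by 0.50 at its start (adjusted p = 0.0365). Without dKO 2, 3 of the 15 calls of the methionine cycle remained (Ahcy at the start and at 24671 bp, and Mat1a), and without dKO 1, 6 did. Without control 1 or without control 2, 9 remained. Adjusted p-values of the Bhmt, Bhmt2, Dmgdh, Sardh and Shmt1 regions without dKO 2 lay between 0.0662 and 0.205. Gnmt, the glycine N-methyltransferase of liver, had 2 regions, both with a peak in dKO 1 alone (34.7 and 28.9).

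Transsulfuration and cysteine breakdown had 5 lower regions of 13 (38.5%, where 11.6% of all shared regions were lower). Cth, cystathionine gamma-lyase, had 3 of 6. The one with the smallest p-value of all 153 lay 1175 bp outside the gene (chr3:157926139-157926374), with 58.7, 57.4 and 47.4 in control and 26.1, 27.0 and 31.1 in dKO. All 3 dKO libraries were low and the groups were far apart (-0.87, SE 0.12, adjusted p = 0.00125). The region 51 bp outside the gene changed by -0.50 (adjusted p = 0.0133). A weak region 12046 bp away changed by -1.0, from 20, 11.8 and 7.51 to 5.48, 4.76 and 5.71, where the controls ranged widely and control 3 lay close to the dKO libraries (adjusted p = 0.015). Cbs, cystathionine beta-synthase, had 1 shared region, at its start (chr17:31636555-31636878), with 34.2, 36.9 and 35.4 in control and 18.7, 18.1 and 29.1 in dKO (-0.64, SE 0.13, adjusted p = 0.00657). Cdo1, the cysteine dioxygenase, fell at 1 of 6 regions, by 0.41 (32.0 ± 1.71 to 23.0 ± 4.30, adjusted p = 0.0268). Without dKO 2 only the Cth region at 1175 bp stayed called of these 5, and the others had adjusted p from 0.0517 (Cbs) to 0.146 (Cdo1).

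Tryptophan breakdown had 7 lower and 1 higher region of 23. These are 30.4% and 4.35%, where 11.6% and 8.19% of all shared regions were lower and higher. Tdo2, the tryptophan dioxygenase of hepatocytes and first enzyme of the kynurenine pathway, had 1 shared region, at its start (chr3:81975638-81975889), with 46.9, 45.0 and 49.5 in control and 30.1, 24.1 and 38.3 in dKO (-0.56, SE 0.12, adjusted p = 0.00611). Kmo, kynurenine 3-monooxygenase, fell at both of its shared regions. Inside the gene (chr1:175647066-175647272) the values were 70.6, 67.5 and 61.8 against 33.7, 35.3 and 44.8, with every dKO library well below the controls (-0.74, SE 0.11, adjusted p = 0.00179), and 53 bp upstream of the start the change was -0.56 (adjusted p = 0.00664). Haao, which acts 2 steps later than Kmo in the pathway, fell at 3 of 7 regions. Its start region (chr17:83846803-83847006) had 72.3, 67.6 and 63.6 in control and 36.3, 35.6 and 56.1 in dKO (-0.63, adjusted p = 0.0057), and its strongest region, inside the gene, had 99.2, 98.7 and 87.3 against 42.6, 47.8 and 80.4 (-0.72, adjusted p = 0.00743). Kynu, kynureninase, lies between Kmo and Haao in the pathway and fell at 1 of 6 regions, by 0.42 (adjusted p = 0.0236). Ido2, a dioxygenase that also opens the pathway, had the single higher region, a weak one 25497 bp from the gene (chr8:24506275-24506516), with 4.63, 6.13 and 6.17 in control and 11.7, 8.83 and 8.87 in dKO (0.76, SE 0.18, adjusted p = 0.0101). Without dKO 2, both Kmo regions stayed called, and the calls at Haao (adjusted p from 0.0501 at the start to 0.128), Tdo2 (0.0597), Kynu (0.110) and Ido2 (0.0597) were lost. Without dKO 1, the calls at Kynu (0.0835), Ido2 (0.0583) and the weakest Haao change (0.137) were lost.

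Tyrosine breakdown had 6 lower regions of 13 (46.2%, where 11.6% of all shared regions were lower). Hpd, the hydroxyphenylpyruvate dioxygenase, had 3 of 4, all upstream. At chr5:123201601-123201773, 18964 bp from the start, values were 34.2, 31.0 and 26.3 in control and 12.8, 14.5 and 20.4 in dKO, without overlap (-0.85, SE 0.16, adjusted p = 0.00346). Fah, the last enzyme of the pathway, had 56.5, 61.5 and 66.2 against 34.6, 27.8 and 54.0 at 1282 bp into the gene, where dKO 3 came close to control 1 (-0.64, adjusted p = 0.00866). Gstz1, maleylacetoacetate isomerase, fell at 2 of 4 regions, by 0.37 and 0.35 (adjusted p = 0.0377 and 0.0451). Without dKO 2 the Hpd region at 18964 bp alone kept its call (adjusted p = 0.0262), and Fah had 0.0772. Hgd, homogentisate dioxygenase, had no called region among 2. Its region with the smallest p-value had 18.9, 19.3 and 12.9 in control and 14.5, 11 and 12.5 in dKO, so the groups overlapped (adjusted p = 0.213).

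Histidine breakdown had 2 lower regions of 8. With 25% lower, against 11.6% of all shared regions, this count is too small to set the pathway apart. Uroc1, urocanase, fell by 0.47 at a region 530 bp outside the gene, with 62.4, 58.1 and 55.2 in control and 36.5, 36.0 and 49.8 in dKO (adjusted p = 0.0131). Hal, histidine ammonia-lyase and the first step, fell by 0.36 at a region 2044 bp outside the gene (37.7 ± 3.42 to 28.1 ± 4.71, adjusted p = 0.0452). Ftcd, the last enzyme of the pathway, had 49.8, 49.3 and 54.0 against 38.7, 34.3 and 49.1 at its start, a change of -0.27 that was not called (adjusted p = 0.0879). Amdhd1, the imidazolonepropionase and a neighbour of Hal, had 2 shared regions. At its start the values were 63.4, 52.6 and 53.0 in control and 52.7, 50.8 and 57.0 in dKO, so the groups overlapped (-0.01, adjusted p = 0.968). Neither call of this pathway remained without dKO 1 (0.0641 for Uroc1, 0.165 for Hal) or without dKO 2 (0.0737 and 0.164).

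Serine, glycine and alanine breakdown had 3 higher and 1 lower region of 20, and the median change was 0.07. With 15% higher and 5% lower, against 8.19% and 11.6% of all shared regions, these counts are too small to set the group apart. Gldc, the decarboxylase of the glycine cleavage system, had 1 higher region of 13, inside the gene (chr19:30151392-30151606). Its values were 12.9, 12.4 and 6.34 in control and 25.5, 20.8 and 18.8 in dKO, with every dKO library above every control (1.08, SE 0.23, adjusted p = 0.00745). Agxt, the peroxisomal alanine-glyoxylate aminotransferase, had 2 higher regions of 5, both inside the gene. One had 22.9, 18.1 and 14.5 in control and 31.5, 25.2 and 27.3 in dKO (0.65, adjusted p = 0.0152), and the other 22.3, 22.4 and 23.2 against 29.5, 26.3 and 31.8 (0.41, adjusted p = 0.0236). Neither overlapped between the groups. Sdsl, a relative of serine dehydratase, fell at 1 of 2 regions, by 0.52, with 23.3, 29.5 and 31.9 in control and 18, 13 and 26.5 in dKO, so that dKO 3 lay inside the control range (adjusted p = 0.0436). Sds, serine dehydratase itself, had no region, and Gpt, the alanine transaminase, had 2 outside the gene with peaks only in narrow libraries (51.1 in control 1, 37.2 in dKO 1 and 29.9 in dKO 2 at the stronger). None of the 4 calls of this group remained without dKO 2, where Gldc had adjusted p = 0.0544, the Agxt regions 0.0826 and 0.123 and Sdsl 0.234.

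Branched-chain amino acid breakdown had 4 lower and 3 higher regions of 29 and a median of -0.03. These are 13.8% and 10.3%, near the 11.6% and 8.19% of all shared regions. Hibadh, 3-hydroxyisobutyrate dehydrogenase of the valine branch, fell by 0.39 at its start, from 70.9, 66.1 and 69.3 to 46.0, 43.6 and 61.8 (adjusted p = 0.022), and rose by 0.55 at a weaker region inside the gene, from 15.2, 16.7 and 11.2 to 20.5, 18.6 and 22 (adjusted p = 0.0284). Both sets of values were free of overlap. Bckdhb, a subunit of the branched-chain ketoacid dehydrogenase, fell by 0.48 at its start (25.3 ± 4.13 to 17.2 ± 3.67, adjusted p = 0.0387) and rose by 0.49 at a site 136107 bp into the gene, from 29.8, 26.3 and 29.3 to 34.7, 37.9 and 43.6 (adjusted p = 0.0138). Dbt, another subunit of that complex, fell by 0.44 at its single shared region (25.3 ± 3.54 to 17.6 ± 2.25, adjusted p = 0.0397), and Mccc2, a subunit of the leucine-branch carboxylase, fell by 0.40 at its start (adjusted p = 0.0411) with 40.5 in dKO 3 and 40.5 in control 1. Bcat2, the mitochondrial transaminase of the first step, rose by 0.65 at a region 8056 bp outside the gene, although 16.9 in dKO 2 lay below 18.2 in control 2 (adjusted p = 0.0184).

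The other branched-chain genes had no called region. Hibch, the hydrolase of the valine branch, had the highest values of the branch at its start, with 125.8, 129.7 and 120.7 in control and 93.9, 98.8 and 120.7 in dKO, where dKO 3 equalled control 3 (-0.21, adjusted p = 0.196). Mccc1, the partner of Mccc2, had 28.1, 29.0 and 29.1 against 26.3, 20 and 27.9 (-0.16, adjusted p = 0.351), and Ivd, isovaleryl-CoA dehydrogenase, had 21.3, 26.7 and 32.6 against 27.5, 23.9 and 34.8, which overlapped (0.16, adjusted p = 0.468). Bckdha, the partner of Bckdhb, had 7 regions and a peak in all 6 libraries at none. At its start, peaks were called in control 1 (19.3), control 2 (22.1), dKO 1 (15.7) and dKO 2 (11.8). None of the 7 calls of the branched-chain genes remained without dKO 2, where adjusted p ran from 0.0562 for Bcat2 to 0.172 for Mccc2. Without dKO 1, 1 call remained, the higher Bckdhb region (0.0310).

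With all shared regions of a gene averaged, 15 of the 39 genes were lower in dKO and 0 were higher (limma over 14708 genes, of which 7.96% were lower and 5.52% higher). At an unadjusted p under 0.05, 0 of the 39 genes were above 0. The changes of 32 genes lay below 0 and their median was -0.28, against -0.03 over all genes. In order of p the 15 were Kmo (-0.65, SE 0.10, adjusted p = 0.00709), Aass (-0.73, SE 0.12, adjusted p = 0.00814), Tdo2 (-0.56), Cbs (-0.64), Mat1a (-0.58), Prodh (-0.61), Ahcy (-0.55), Hpd (-0.59), Aldh4a1 (-0.52), Uroc1 (-0.47), Shmt1 (-0.52), Dbt (-0.44), Bhmt2 (-0.40), Cth (-0.41) and Bhmt (-0.43, SE 0.12, adjusted p = 0.0386). Tdo2, Cbs, Mat1a, Uroc1 and Dbt had 1 shared region each, so their gene mean is that region. The genes farthest above 0 were Agxt (0.20, adjusted p = 0.205), Ivd (0.16), Hibadh (0.14) and Gldc (0.14), none of them called. Without dKO 2 only Kmo was called, at adjusted p = 0.0489, and without dKO 1 Kmo, Aass and Mat1a were. Without control 1, 9 were called, and without dKO 3, 21.

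**Figure D3:**
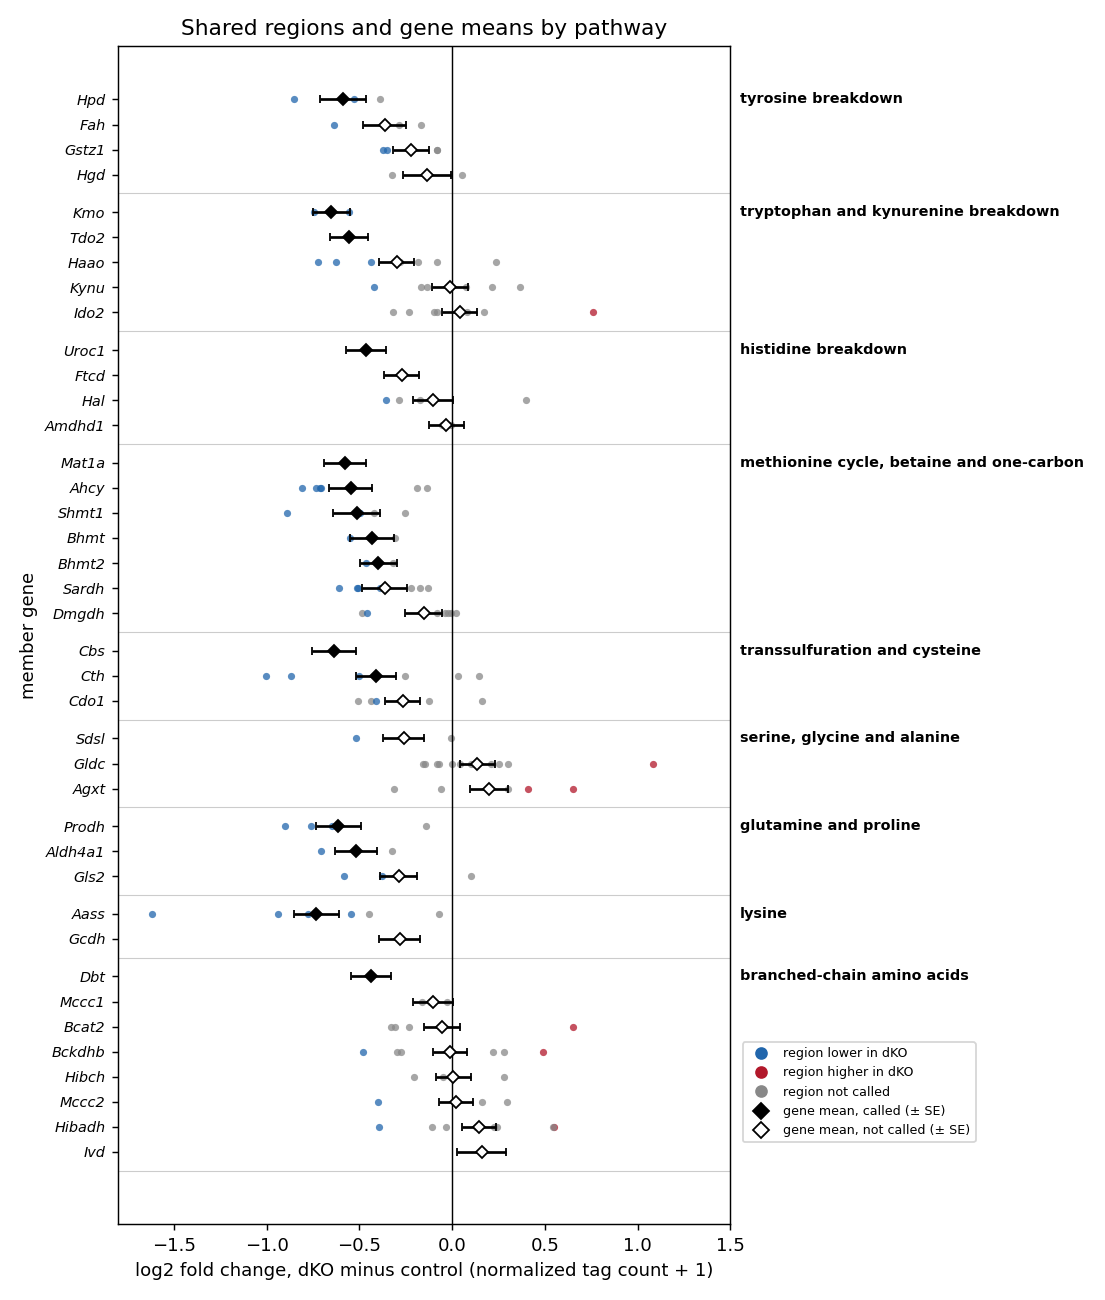
Log2 change (dKO minus control) of each shared region, as a dot coloured by its call, and of each gene's mean over its regions, as a diamond with its SE, for the 39 genes ordered by role. The filled diamonds, the 15 called genes, lie between -0.73 and -0.40, and Aass, Kmo and Cbs are farthest to the lower side.

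Position relative to the gene was examined next. Within 1 kb of a start, 14 of 28 member regions were lower and 0 higher, and 27 of the 28 changes were below 0. Genes without a RefSeq window could not enter this class, so regions at the edges of Mat1a, Dbt and Cth, among others, were counted as inside or outside the gene. At all genes 10.2% of such regions were lower and 2.2% higher. At an unadjusted p under 0.05, 0 of the 28 were above 0. Inside genes, 19 of 73 were lower and 5 higher, where 10.5% of all such regions were lower and 10.5% higher. Outside genes, 17 of 52 were lower and 2 higher, where 12.2% and 8.49% of all were. The 7 higher regions thus lay inside genes (Gldc, Agxt with 2, Bckdhb, Hibadh) or 25497 bp (Ido2) and 8056 bp (Bcat2) outside.

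The strength of the regions differed too. Member regions were strong, with a median over regions of the mean normalized tag count of 26.4, against 15.9 for all shared regions. Of the 95 with a mean of at least 20, 46 were lower and 3 higher, 48.4% lower where 18% of all such regions were lower and 4.26% higher. Of the 58 with a mean under 20, 4 were lower and 4 higher, 6.90% each, where 7.38% of all such regions were lower and 10.8% higher. The weaker member regions thus had a share near the background. The median change of the strong member regions was -0.37, against -0.15 for all strong regions, and that of the weak ones was 0.01, against 0.08.

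**Figure D4:**
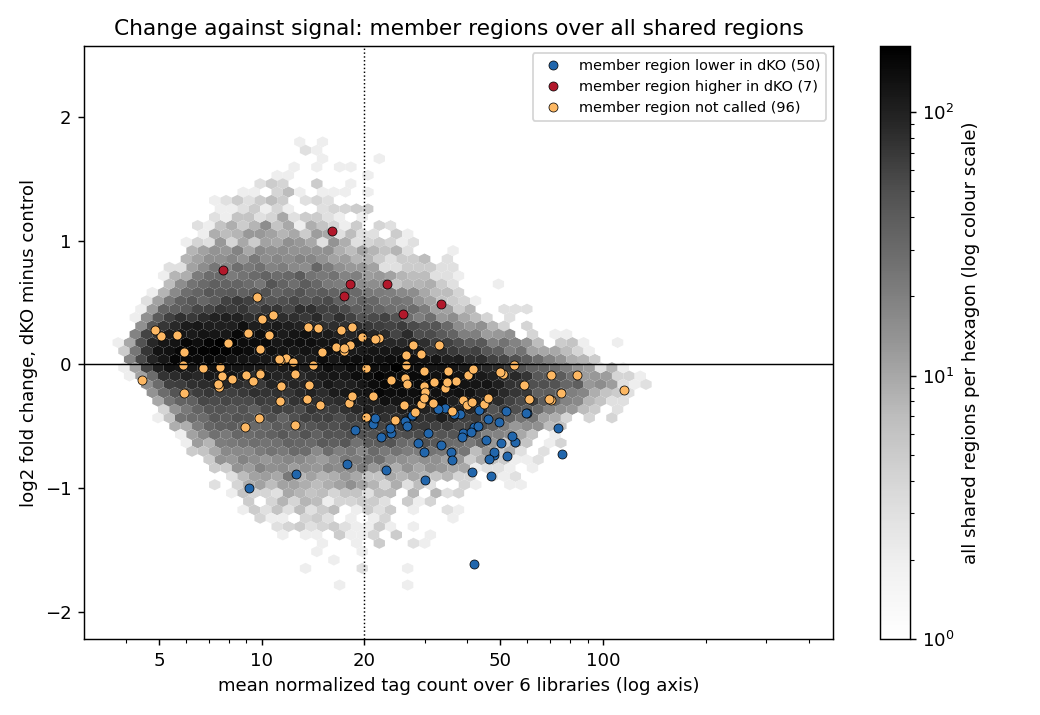
Log2 change (dKO minus control) against the mean normalized tag count over the 6 libraries (log axis), with all 51749 shared regions as hexagons shaded by their number and the 153 member regions as dots coloured by their call. The dotted line marks a mean of 20, and 46 of the 50 lower regions lie to its right.

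Peaks present in one group alone were few. The 6 regions with a peak in all dKO and in no control library were 1.65% of the 363, against 1.57% of all regions. The strongest lay at the end of Hpd (chr5:123171790-123172012), with 20.1, 18.3 and 28.1 in dKO. Bcat2 (19.4, 15.4 and 18), Cdo1 (13.2, 20 and 21), Hibadh (17.4, 12.1 and 9.66), Cth (15.9, 9.83 and 9.42) and Aass (6.76, 4.86 and 4.86) had 1 each. Hpd, Cdo1, Cth, Aass and Hibadh also had shared regions that fell, elsewhere at the same genes. The 1 region with a peak in all controls and in no dKO library lay 2484 bp outside Dmgdh, with 7.13, 9.05 and 8.19, against 1.34% of all regions. A missing peak is not shown to be a closed site, since peaks had to stand out from their surroundings. Of the 203 regions called in another mixture of libraries, 71 were called in 1 library and 115 only in narrow ones. Their highest value had a median of 12.9, against 32.7 in the shared regions.

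The neighbouring steps of the same pathways were counted in the same way. Of 59 other genes of amino acid metabolism, listed by pathway, 54 had a shared region. Of their 187 shared regions 41 were lower and 9 higher, and the median change was -0.14. These are 21.9% lower against the 11.6% of all, and 4.81% higher against 8.19%. Averaged by gene, 16 of the 54 were lower and 0 higher, with 1 above 0 at an unadjusted p under 0.05. Of all genes, 7.96% were lower and 5.52% higher. The 16 included Prodh2, the hydroxyproline dehydrogenase related to Prodh (-0.90, SE 0.16, adjusted p = 0.00831), Gpt2, the mitochondrial alanine transaminase (-0.44, adjusted p = 0.0137), Pipox, which degrades pipecolate and sarcosine (-0.44, adjusted p = 0.0143), Mpst of cysteine breakdown (-0.53, adjusted p = 0.0147) and Dhtkd1 of the lysine pathway (-0.47, adjusted p = 0.0162). Tat, the tyrosine aminotransferase that precedes Hpd, changed by -0.51 over its 5 shared regions and was not called as a gene (adjusted p = 0.0522). Single regions of Tat were called lower, with changes of -0.62, -0.62 and -0.59 (limma adjusted p = 0.00825, 0.0125 and 0.017). The others, at -0.66 and -0.07, were not called (adjusted p = 0.129 and 0.817). Without dKO 2, 11 of the regions of these related genes were lower, and without dKO 1, 13. Of all shared regions, 2.68% and 4.05% were lower in these 2 fits.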

How the data were processed

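ATAC-seq was measured in 6 libraries, 3 control and 3 dKO, grouped by the labels' genotype. Per the submitters' processing notes, Trim Galore 0.6.4, Picard, SAMtools 1.10 and HOMER 4.11 were used on mm10. Which aligner and read filters were used, and whether cut sites were shifted, is not given in the sources used here. Per the file headers, each library has its own deposited HOMER peak list, so peaks were not called on pooled libraries. The deposited signal used is the normalized tag count, which HOMER scales for depth to a total that the labels leave out. For each peak the deposited lists also hold a fraction named focus ratio, a score, ratios (local and clonal fold) and a p-value. Of these the score alone was used, to keep the peaks above the median of each list as an alternative. The lists held 68316 to 84614 peaks with median normalized tag counts of 10.9 to 13.4. Peak width was 108 bp in control 1, dKO 1 and dKO 2 (narrow) and 166 or 172 bp in the others (wide).

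Peaks on chromosomes 1 to 19 and X that shared at least 1 bp were merged, and the value of a library was its highest normalized tag count in the region. A region belonged to the protein-coding gene of RefSeq's GRCm38.p6 table whose span lay nearest to its midpoint, up to 50 kb away. Distances to a start use RefSeq's promoter windows where one was found. Mat1a, Dbt, Cth, Gls2, Cdo1, Sdsl, Ido2, Kynu, Sds and Gpt had no window. Exons, introns and UTRs were not analysed here, and neither was the deletion of the floxed sequence. The shared regions, with a peak in each of the 6 libraries, entered limma 3.58.1 (R 4.3.3, trend option) as log2(value + 1) after centring each library on its median. Group was the single factor, and Benjamini-Hochberg adjustment of the 2-sided p-values ran over all regions or all genes. Changes are dKO minus control, and on this scale the change of a weak region is understated. Standard errors (SE) are limma's moderated ones. The pipeline was tested on simulated data with equal spread in every library and no width classes. That test cannot judge the place of dKO 3 or the peak widths. The smallest p that an exact permutation of 3 and 3 libraries allows is 0.1.

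The members and lists were chosen with earlier results of these data known. Values in every library were given for the region with the smallest p of each gene, the 12 lower regions and up to 8 higher ones with the smallest p, regions with peaks in one group alone, and the strongest region of genes without a call. A further region each of Aass, Haao and Cth was added after its values were seen. Alternatives were other pseudocounts, quantile normalization, no centring, filters on strength, score and number of libraries, other merging, summing and linking rules, the peak width class or the replicate number as a term, and each library left out in turn. A fit without a library used the regions called in all that remained. An item of the marker lists is not reported here.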

Additional observations from a re-analysis of the deposited data

How the results depend on the processing

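The 50 lower and 7 higher member regions, the 15 lower and 0 higher member genes, and the 41 lower and 9 higher regions of related genes were recounted under each alternative. Without centring, 32 member regions were lower and 4 higher, and 3 related regions were higher. With a mean of at least 20, where fewer regions were tested, 28 were lower and 3 higher, 1 gene was higher, and 20 related regions were lower. With only the peaks above the median score of each list, 29 were lower and 4 higher, 1 gene was higher, 22 related regions were lower, and 4 regions had peaks in control libraries alone and 3 in dKO libraries alone. Quantile normalization gave 34 lower regions and 1 higher gene. With 50 bp shared, 0 regions had peaks in control alone. Leaving out 1 library gave 14 to 60 lower and 0 to 8 higher member regions, 1 to 21 lower and 0 higher genes, and 11 to 52 lower and 2 to 14 higher related regions. The low ends came without dKO 2 and the upper ends of the lower counts without dKO 3, and the cause was not tested.

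Of the 46 shared regions that the naming rule chose, 38 were called, 12 of these kept the call wherever they were tested and 0 reversed. Calls were lost at 26 without dKO 2 and at 19 without dKO 1. Ftcd was gained without dKO 3. The Amdhd1 regions, near 0 and not called, changed sign under quantile normalization (0.085 and 0.18), a mean of at least 20 (0.090 and 0.13) and the filter on score (0.067 and 0.11), and the region at the start ranged from -0.065 to 0.080 as libraries were left out. With the replicate number as a replicate block, 55 member regions were lower and 8 higher, 15 genes were lower, and 15 related regions were higher. Deviations of same-numbered libraries correlated at 0.146, -0.0322 and 0.234 across regions. The last, of control 3 and dKO 3, was the highest of all pairs, while control 1 went slightly better with dKO 2 (0.157). Both of these pairs shared a peak width class. The lowest, control 1 with dKO 3 (-0.23), crossed the classes, while control 2 with dKO 3, both wide, had 0.0175. These values cannot decide whether equal numbers mark pairs, and the labels do not say. Depth could not be recovered, so its limits are not known.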
